A study of Mus musculus with 24 samples.

Results

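Myoblasts moved to differentiation medium at low oxygen were compared with the same cell line in growth medium at ordinary oxygen, to describe the state in which the hypoxic cultures arrived relative to standard proliferating myoblasts. C2C12 is an established mouse myoblast line from skeletal muscle. The hypoxic differentiation group (replicates A and B) held cells in DMEM with 2% horse serum and an ITS supplement at 2% oxygen, and the normoxic growth group (replicates A and B) held cells in DMEM with 10% fetal bovine serum and penicillin and streptomycin at 21% oxygen. Medium and oxygen both change between these groups and cannot be told apart in the comparison, so hypoxic growth (10% serum, 2% oxygen) and normoxic differentiation (2% serum, 21% oxygen) are given beside it. All 4 groups were the same line, with no genetic change named in the labels. Growth cultures were kept below confluence, per the labels, and the number of days in differentiation medium is not given in the sources used here, so culture density and time also differ between the groups. The labels call A and B biological replicates without saying whether they were separate thaws or passages.

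The comparison took every gene with a mean of at least 1 FPKM in either group. FPKM is fragments per kilobase of transcript, scaled to the number of mapped fragments, a level that can be compared between genes. This left 11780 of the 24043 genes in the deposited table, measured in 4 of the 8 RNA-seq libraries of a series of 24 samples. Libraries of H3K27me3 chromatin and their inputs were not used here.

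In muscle precursor cells the basic helix-loop-helix factors MyoD and Myf5 set the lineage, and myogenin and the MEF2 factors then switch on the contractile genes as cells leave the cell cycle and fuse. Id proteins hold MyoD in check by binding its E-protein partners. At low oxygen the hypoxia-inducible factor HIF-1 is no longer marked for destruction by prolyl hydroxylases, and it switches on genes for glucose uptake, glycolysis, blood vessel growth and pH control. The making of cholesterol uses oxygen at several steps and is controlled by SREBP-2, which is released when membrane sterol runs low.

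Total RNA was sequenced, so histone and other transcripts without a poly(A) tail can be present. The deposited values summed to between 480018 and 534167 FPKM per library, and relative depth, read from the step between low values, ran from 0.633 (hypoxic differentiation B) to 1.0 (hypoxic differentiation A). Absolute depth is unknown. The hypoxic differentiation replicates stood further apart than any other pair. Over the genes tested the SD of their log2 difference was 0.58, against 0.45 in normoxic growth, 0.33 in hypoxic growth and 0.31 in normoxic differentiation. They differed by more than 2-fold at 610 genes (5.18%), against 69, 47 and 48 genes in the other pairs in that order. Results that rest on 1 of these libraries are therefore given with and without it. Leaving 1 out leaves a single library in the group, so counts from such a fit rest on the spread within the other groups. They are given as description only.

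Of the 11780 genes tested, 5921 (50.3%) differed between hypoxic differentiation and normoxic growth at an adjusted p under 0.05 in limma. These were 2534 genes (21.5%) that rose and 3387 genes (28.8%) that fell in hypoxic differentiation. At a log2 change of at least 1 there were 791 higher and 1195 lower genes, and the median change of all genes was -0.05. The spread in this fit was shared by all 8 libraries, and with the 4 compared libraries alone 3696 genes were called, 1478 higher and 2218 lower. Both hypoxic differentiation libraries lay above all 6 others at 1829 genes (15.5%) and below them at 1231 genes (10.4%). Fold changes below are on the log2(FPKM + 1) scale, hypoxic differentiation minus normoxic growth, with the standard error of the fit, and this scale understates the change of low genes.

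**Figure D1:**
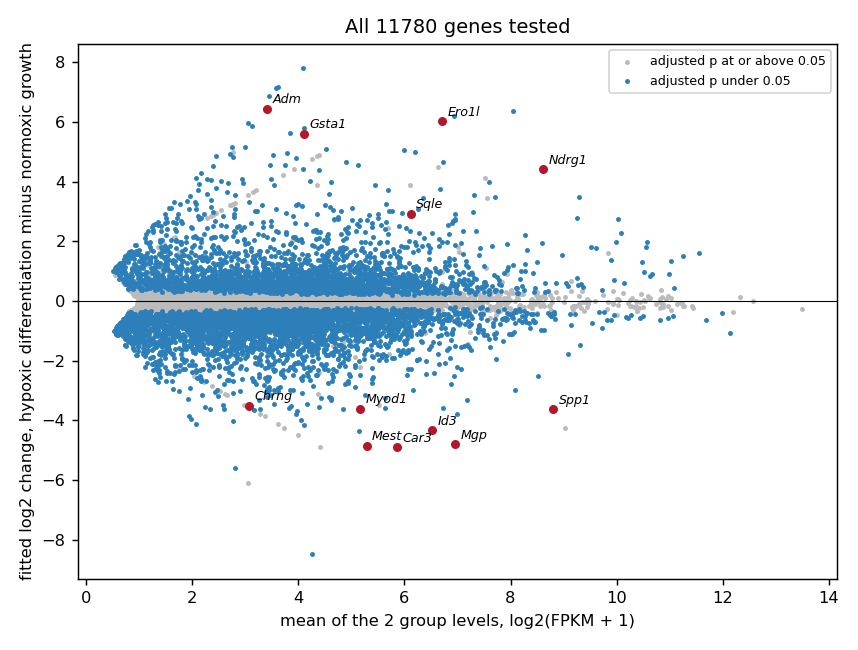
Each point is 1 of the 11780 genes tested, with the mean of the 2 group levels as log2(FPKM + 1) on the x axis and the fitted log2 change, hypoxic differentiation minus normoxic growth, on the y axis. Blue points have an adjusted p under 0.05 (5921 genes), and 12 genes described in the text are marked in red, from Adm at 6.45 to Car3 at -4.89.

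The muscle lineage regulators were lower in hypoxic differentiation than in the standard myoblasts, although the cells kept a measurable level of each. Myod1, which encodes MyoD, stood at 139 and 108 FPKM in normoxic growth and 6.95 and 11.8 FPKM in hypoxic differentiation. Its log2 change was -3.61 (SE 0.22, adjusted p = 3.17e-05). Hypoxic growth held 25.1 and 26.1 FPKM and normoxic differentiation 180.5 and 172 FPKM, so the hypoxic differentiation libraries were the lowest of all 8 and overlapped no other group. The further fall from hypoxic growth was -1.40 (SE 0.22, adjusted p = 0.0032).

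Myf5, the sister lineage factor, fell less, from 20 and 20 FPKM to 8.58 and 8.45 FPKM (-1.14, SE 0.08, adjusted p = 5.09e-05). At 9.89 and 9.55 FPKM in hypoxic growth it was not called different from hypoxic differentiation (adjusted p = 0.122). Pax7, the factor of satellite cells, the stem cells of muscle, went from 26.6 and 27.3 FPKM to 10.2 and 8.96 FPKM (-1.40, SE 0.09, adjusted p = 3.93e-05) and was lowest in hypoxic differentiation among the 4 groups.

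Several structural and cell surface markers of myoblasts fell, while other surface genes of the list rose. Des, the intermediate filament desmin, was at 228 and 194 FPKM in normoxic growth and 28.6 and 53.1 FPKM in hypoxic differentiation (-2.40, SE 0.25, adjusted p = 0.000315). Cdh15, the muscle adhesion protein M-cadherin, was at 78.7 and 64.9 FPKM against 12.3 and 12.5 FPKM (-2.44, SE 0.11, adjusted p = 1.03e-05). With 12.2 and 12.2 FPKM in hypoxic growth, Cdh15 was not called different between the hypoxic groups (difference 0.02, SE 0.11, adjusted p = 0.877). Vcam1, an adhesion receptor, was at 62.4 and 68.4 FPKM against 2.7 and 3.73 FPKM, and Fgfr4, the fibroblast growth factor receptor typical of myoblasts, was at 63.2 and 50.6 FPKM against 2.97 and 3.31 FPKM, log2 changes of -3.99 and -3.80. Measured with the 4 defining markers Myod1, Myf5, Des and Cdh15, the C2C12 label is met by the normoxic growth libraries, and the hypoxic differentiation libraries carry the same markers at a fraction of that level.

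Of 30 myoblast identity genes, 25 were tested, and 15 fell and 6 rose, with a median change of -0.99 against -0.05 for all genes. Of these 25, 24 passed the level filter in both groups. The 6 that rose (Sdc3, Ncam1, Cdh2, Sdc4, Dag1 and Met) all encode cell surface proteins. Sdc3 (syndecan-3) went from 48.3 and 49.6 FPKM to 167 and 144 FPKM, Ncam1 (neural cell adhesion molecule) from 35.3 and 36.1 FPKM to 106 and 90.2 FPKM, and Cdh2 (N-cadherin) from 17.1 and 19.6 FPKM to 44.1 and 41.4 FPKM. Between hypoxic growth and normoxic growth the same list had 15 lower and 5 higher members (backgrounds 29.0% and 13.5% of all genes). Between hypoxic differentiation and hypoxic growth it had 3 lower and 5 higher (17.8% and 24.6%), with a median difference of -0.10. Few calls between groups of 2 libraries do not show that the levels were equal. Both hypoxic differentiation libraries lay below all 6 others at 9 of the 25 members and above them at 2 (10.4% and 15.5% of all genes).

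Most tested genes of the muscle program, contractile and fusion genes among them, fell below their level in growing myoblasts, and all 42 were below their level in normoxic differentiation. Myog, which encodes myogenin, was at 13.3 and 8.83 FPKM in normoxic growth and 4.49 and 2.14 FPKM in hypoxic differentiation (-1.52, SE 0.27, adjusted p = 0.00372). The same gene reached 2576 and 2642 FPKM in normoxic differentiation and was at 0.342 and 0.442 FPKM in hypoxic growth. Myog was therefore lower than in standard myoblasts, yet higher than in hypoxic growth by 1.58 (SE 0.27, adjusted p = 0.00469).

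Mef2c, a partner of myogenin, was at 0.0405 and 0.0547 FPKM in normoxic growth and 0.0141 and 0 FPKM in hypoxic differentiation, under the filter in both, against 27 and 28.5 FPKM in normoxic differentiation. The fusion gene Tmem8c (myomaker) was at 4.12 and 3.44 FPKM against 2.08 and 1.06 FPKM, a log2 change of -0.92 (SE 0.19, adjusted p = 0.00615). Myh3, embryonic myosin heavy chain, was at 1.24 and 0.846 FPKM against 0.933 and 0.417 FPKM, and Ckm, muscle creatine kinase, at 1.23 and 0.99 FPKM against 0.855 and 0.0563 FPKM. Neither of these last genes was called (adjusted p = 0.191 and 0.0821), and their normoxic differentiation levels were 149.8 and 146 FPKM and 399.7 and 421 FPKM.

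The acetylcholine receptor subunit genes Chrnd and Chrng had the 2 largest falls among the tested members of the muscle list. Chrng (gamma subunit) was at 30.3 and 24.7 FPKM in normoxic growth and 1.48 and 1.51 FPKM in hypoxic differentiation, and Chrnd (delta subunit) at 20.7 and 19.6 FPKM against 0.671 and 0.789 FPKM, log2 changes of -3.51 and -3.61. Chrna1, the alpha subunit, fell by less (-1.05), and Chrnb1, the beta subunit, was not called (-0.28, adjusted p = 0.108). Cox6a2, a muscle form of a cytochrome oxidase subunit, was an exception, at 0.274 and 0.106 FPKM in normoxic growth and 18.2 and 11.6 FPKM in hypoxic differentiation (3.71, SE 0.24). It was at 495 and 425 FPKM in normoxic differentiation.

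Of 81 muscle genes in the list 42 were tested, 26 fell and 2 rose, and the median change was -1.0. Among those 42, 9 passed the level filter only through normoxic growth and 3 only through hypoxic differentiation, so for these the direction was partly fixed by the filter. Summed over the whole list, the 4 libraries compared held 963 and 834 FPKM in normoxic growth and 370 and 464 FPKM in hypoxic differentiation. Normoxic differentiation held 37829 and 37989 FPKM, and hypoxic growth 348 and 367 FPKM. Against normoxic differentiation all 42 tested members were lower in hypoxic differentiation (25.1% of all genes were lower and 39.0% higher). In normoxic differentiation against normoxic growth, 41 of the 42 rose and 1 fell (22.8% and 42.7% of all genes). Since these are bulk cultures, fewer cells that carry a transcript and less of it per cell cannot be told apart.

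**Figure D2:**
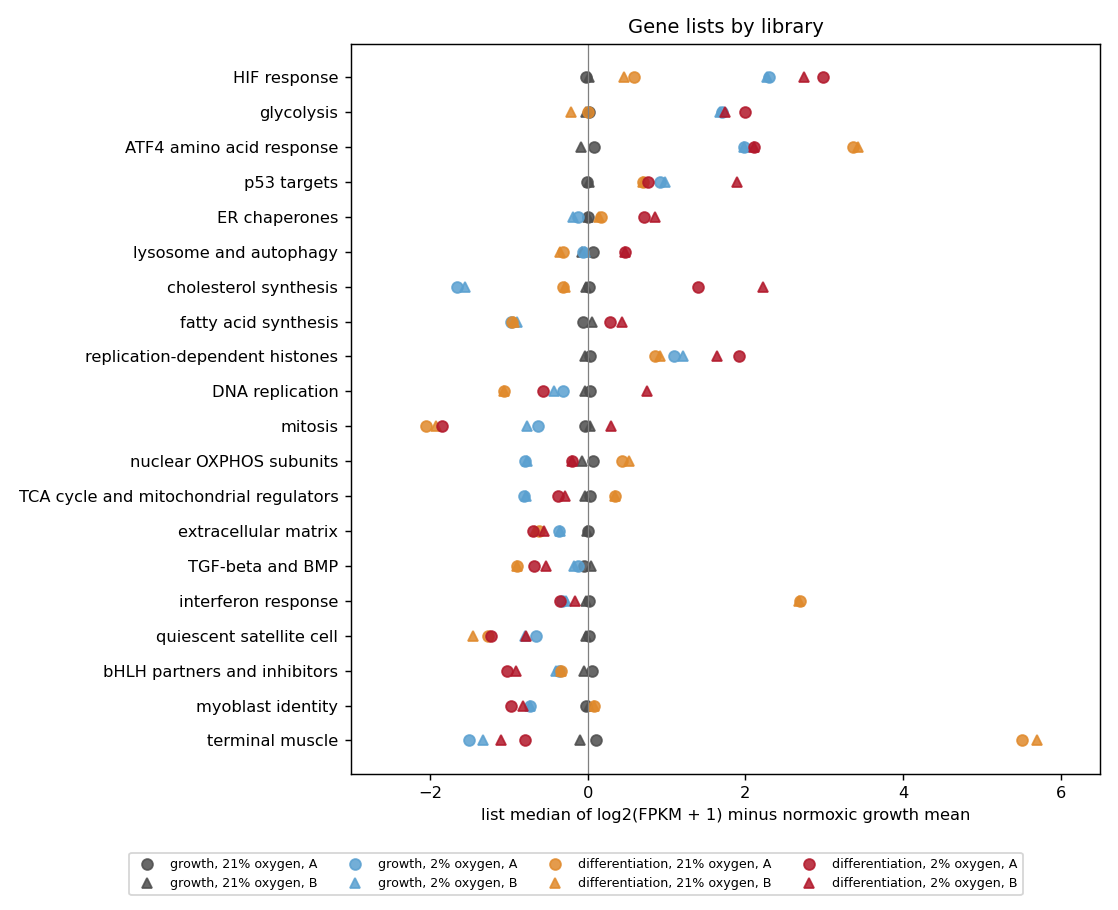
Each row is a gene list and each point 1 library, circles for replicate A and triangles for replicate B. The x axis gives the median over the list's tested members of log2(FPKM + 1) minus the mean of the normoxic growth libraries. Terminal muscle genes lie far right only in normoxic differentiation, the HIF response lies right in both hypoxic groups, and mitosis is, of the lists plotted, the one where the hypoxic differentiation replicates stand furthest apart (-1.85 in A and 0.30 in B).

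Genes for inhibitors of MyoD fell as well. Id3, which blocks MyoD by binding its partners, was at 444 and 359 FPKM in normoxic growth and 13.8 and 26.1 FPKM in hypoxic differentiation, a log2 change of -4.32 (SE 0.26, adjusted p = 2.89e-05) and the fourth largest fall under the ranking rule. Id1 was at 78.3 and 62.1 FPKM against 4.5 and 9.45 FPKM (-3.22, SE 0.27, adjusted p = 0.000123). Both Id genes were lower in hypoxic differentiation than in all 6 other libraries, hypoxic growth included (116 and 114 FPKM for Id3 and 22.5 and 22.9 FPKM for Id1).

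Id2 changed less, from 62.1 and 59.9 FPKM to 26.3 and 38.9 FPKM (-0.91, SE 0.17). Twist1, another inhibitor of MyoD, was at or near 0 in every library. The bHLH repressors Bhlhe40 and Bhlhe41, which are switched on by HIF-1 in many cells, rose. Bhlhe40 went from 19.1 and 17.7 FPKM to 121 and 107 FPKM (2.56, SE 0.10, adjusted p = 6.4e-06), close to the 100.2 and 101 FPKM of hypoxic growth. Of the 19 tested genes for bHLH partners and inhibitors, 12 fell and 3 rose (median -0.93). Snai2, a repressor that keeps MyoD off some sites, was among those that fell, from 58.3 and 57.7 FPKM to 20.1 and 18.4 FPKM.

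Markers of quiescent satellite cells were also lower, with 11 of 14 tested falling and 2 rising (median -1.07). In normoxic differentiation against normoxic growth 11 fell and 1 rose (median -1.36), where 42.7% of all genes fell and 22.8% rose. In hypoxic differentiation Cd34, a surface protein of quiescent satellite cells and of other progenitors, rose from 89.1 and 85.1 FPKM to 218 and 143 FPKM. Sdc4 (syndecan-4) rose from 76.4 and 66.3 FPKM to 155 and 133 FPKM. The Notch receptor gene Notch3 fell from 44.7 and 41.8 FPKM to 15.5 and 26.6 FPKM, and Gas1, a growth arrest gene of the cell surface, from 439 and 463 FPKM to 57.7 and 34.6 FPKM. Of the 28 growth arrest genes tested, 9 rose and 6 fell (median -0.02), with 12 and 10 without hypoxic differentiation A and 9 and 9 without B. Cdkn1a, which encodes the cell cycle inhibitor p21, rose from 64.4 and 55.3 FPKM to 257 and 364 FPKM (2.34, SE 0.16, adjusted p = 5.18e-05), against 242 and 241 FPKM in hypoxic growth and 947 and 984 FPKM in normoxic differentiation. The related inhibitor genes Cdkn1b (40.7 and 45.1 against 44.9 and 30.9 FPKM) and Cdkn1c (9.45 and 10.4 against 9.18 and 3.48 FPKM) were not called.

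Of the marker lists of other cell types with more than 1 tested gene, none rose as a whole. The leukocyte and neural lists had 1 tested gene each and allow no statement on the list. All 7 tested adipocyte genes but 1 fell (median -1.57), among them Cebpa, the adipocyte C/EBP factor, from 19.1 and 17.2 FPKM to 1.75 and 2.46 FPKM. Of 7 tested bone and cartilage genes, 2 rose and 3 fell. Runx2, the bone factor, fell from 15.7 and 16.8 FPKM to 5.77 and 5.85 FPKM, Spp1 (osteopontin) from 1560.2 and 1580.1 FPKM to 126 and 126 FPKM, and Sox9, the cartilage factor, rose from 13.8 and 14.1 FPKM to 26.5 and 19.7 FPKM. Of 6 tested smooth muscle genes 1 rose, with 5 higher and 0 lower without replicate A and 1 higher and 3 lower without B. Of the neural genes only Tubb3, a tubulin of neurons that other cells also carry, was tested, and it rose from 13.3 and 14.3 FPKM to 36.8 and 65.7 FPKM. Of 4 tested fibro-adipogenic progenitor genes 1 rose (Cd34, given above) and 2 fell, of which Pdgfra (a growth factor receptor) went from 10.3 and 12 FPKM to 0.994 and 0.791 FPKM. None of 10 endothelial genes reached the filter, and their summed level was between 0.712 and 1.29 FPKM in every library. Of 9 leukocyte genes only Cd68, a lysosomal membrane protein, was tested, at 3.57 and 2.56 FPKM in normoxic growth and 25.8 and 42.8 FPKM in hypoxic differentiation (3.08, SE 0.25). The defining leukocyte genes Emr1, Tyrobp and Cd3e were listed at 0 in all 8 libraries, which in a table without counts may be a failed estimate, and Ptprc was at most 0.0137 FPKM.

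**Figure D3:**
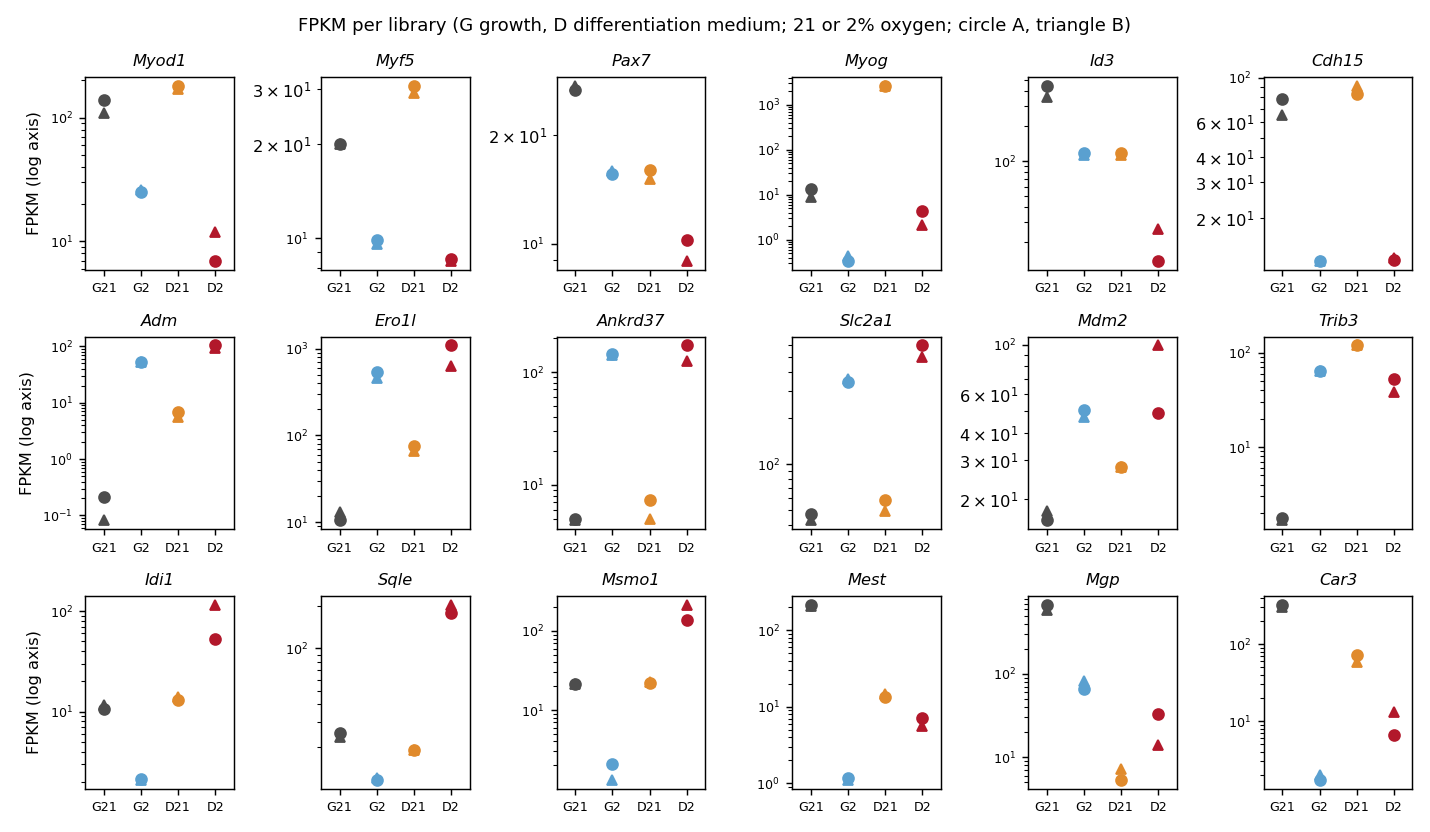
Each panel is 1 gene, with FPKM on a log axis and 1 point per library, circles for replicate A and triangles for B. G21, G2, D21 and D2 are normoxic growth, hypoxic growth, normoxic differentiation and hypoxic differentiation. Myod1 and Id3 are lowest in D2, Myog is high only in D21, Adm and Ankrd37 are high in both hypoxic groups, and Idi1 and Msmo1 are lowest in hypoxic growth and highest in D2.

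Most genes of the hypoxia response rose, and 3 of them (Adm, Ero1l and Higd1a) were among the 12 largest rises under the naming rule. Of 47 HIF response genes 43 were tested, 38 rose and 2 fell, with a median change of 2.90. In hypoxic growth against normoxic growth the same list had 38 higher and 2 lower members (median 2.28). In normoxic differentiation against normoxic growth it had 26 higher and 5 lower (median 0.54), against 22.8% and 42.7% of all genes. Of the 43, 39 passed the level filter in both groups of the main comparison. Of the risen genes, 3 picked for display (Ero1l, Ankrd37 and Higd1a) are shown with the RefSeq sequence around the start of the gene. Ankrd37 was not among the 12 largest rises. The window holds 250 bases before and 50 after the start (GRCm38.p6) and is printed 5′ to 3′ on the gene's strand. The hypoxia response core ACGTG is in capitals on either strand (CACGT where it lies on the other strand).
Ero1l (chr14:45318523-45318822, minus strand): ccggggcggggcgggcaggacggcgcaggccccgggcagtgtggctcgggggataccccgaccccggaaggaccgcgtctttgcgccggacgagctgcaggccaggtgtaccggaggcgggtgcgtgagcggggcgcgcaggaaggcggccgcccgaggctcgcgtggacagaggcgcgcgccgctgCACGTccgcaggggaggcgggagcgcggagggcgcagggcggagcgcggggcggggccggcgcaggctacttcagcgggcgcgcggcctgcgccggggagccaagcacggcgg
Ankrd37 (chr8:45999801-46000100, minus strand): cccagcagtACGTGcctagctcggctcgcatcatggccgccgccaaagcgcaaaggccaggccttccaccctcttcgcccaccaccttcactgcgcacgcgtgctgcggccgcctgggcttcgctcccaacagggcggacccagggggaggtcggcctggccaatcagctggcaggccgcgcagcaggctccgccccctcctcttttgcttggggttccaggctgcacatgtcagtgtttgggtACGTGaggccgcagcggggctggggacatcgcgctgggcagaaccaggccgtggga
Higd1a (chr9:121857747-121858046, minus strand): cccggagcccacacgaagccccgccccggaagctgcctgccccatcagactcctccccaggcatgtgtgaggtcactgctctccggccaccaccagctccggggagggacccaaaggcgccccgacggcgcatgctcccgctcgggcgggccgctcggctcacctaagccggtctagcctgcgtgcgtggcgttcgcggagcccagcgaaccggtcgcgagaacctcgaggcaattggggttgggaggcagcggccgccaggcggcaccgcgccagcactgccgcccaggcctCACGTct

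The core was present in 20 of the 34 HIF response genes with a window (58.8%), in 16 of 23 glycolysis genes (69.6%), in 30.0% of genes tested and in 21.8% of all genes with a window. A match of these letters describes the window and does not show binding. The coordinates belong to GRCm38.p6, while the submitters' processing notes name mm9 for the expression values.

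Ero1l, an oxidase that forms disulfide bonds in the endoplasmic reticulum, was at 10.5 and 13.1 FPKM in normoxic growth and 1087 and 637 FPKM in hypoxic differentiation (6.03, SE 0.24, adjusted p = 7.89e-06). Ankrd37, an ankyrin repeat gene widely used as a sign of HIF-1 activity, was at 4.98 and 4.8 FPKM against 172 and 126 FPKM (4.66, SE 0.19, adjusted p = 8.17e-06). Higd1a, a hypoxia-induced protein of mitochondria, was at 11.2 and 12.8 FPKM against 469 and 368 FPKM (5.0, SE 0.13). In each of these genes the lowest hypoxic differentiation library exceeded the highest normoxic growth library by a wide margin.

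Adm, the vessel-dilating peptide adrenomedullin, had the largest fitted rise of all genes that met the naming rule. It was at 0.211 and 0.0815 FPKM in normoxic growth, near 0, and 103 and 95.1 FPKM in hypoxic differentiation (6.45, SE 0.12, adjusted p = 7.46e-07). Hypoxic growth gave 52.4 and 52.5 FPKM and normoxic differentiation 6.87 and 5.52 FPKM, and the rise above hypoxic growth was 0.91 (SE 0.12, adjusted p = 0.00168).

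Others in the list rose to about the level of hypoxic growth. Car9, a carbonic anhydrase that exports acid, was at 43.9 and 50.7 FPKM in normoxic growth, 814 and 853 FPKM in hypoxic growth and 886 and 662 FPKM in hypoxic differentiation. Ndrg1, a stress response gene, was at 80.7 and 83.8 FPKM, 1806 and 1869 FPKM and 2237 and 1422 FPKM in the same order. Vegfa, the vessel growth factor, was at 70.7 and 72.2 FPKM, 476 and 485 FPKM and 429.9 and 309.6 FPKM. None of these 3 was called different between the hypoxic groups (adjusted p = 0.619, 0.888 and 0.0686). In normoxic differentiation Vegfa stood at 332 and 310 FPKM, not called different from hypoxic differentiation (adjusted p = 0.3). Car9 was at 83.2 and 63 FPKM there and Ndrg1 at 180 and 149 FPKM.

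Other members stood above hypoxic growth or close to it. P4ha2, a collagen prolyl hydroxylase, was at 19.7 and 20.3 FPKM in normoxic growth and 614 and 467 FPKM in hypoxic differentiation (4.67, SE 0.15), above the 330.4 and 342 FPKM of hypoxic growth (adjusted p = 0.0138). Egln3, one of the oxygen-sensing prolyl hydroxylases and itself a HIF target, went from 25.8 and 27.4 FPKM to 420.2 and 333 FPKM (3.77, SE 0.13). In normoxic differentiation Egln3 was at 214 and 181 FPKM. Lox, a collagen crosslinker, rose from 89 and 106 FPKM to 272 and 303 FPKM in hypoxic differentiation. Hif1a itself, which is controlled mainly at the protein, was at 31.2 and 43.1 FPKM against 39.5 and 35.3 FPKM (adjusted p = 0.902). Arnt, the HIF partner, fell from 25.4 and 26 FPKM to 17.7 and 14.6 FPKM.

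Most glycolysis genes rose. Slc2a1, the glucose transporter GLUT1, was at 47.6 and 42.9 FPKM in normoxic growth and 599 and 499.6 FPKM in hypoxic differentiation (3.57, SE 0.12, adjusted p = 4.81e-06). Hk2, the first enzyme of glycolysis, went from 5.8 and 6.01 FPKM to 90.4 and 72.9 FPKM, and Aldoc, an aldolase, from 6.05 and 6.69 FPKM to 66.5 and 69.8 FPKM. Ldha, which turns pyruvate into lactate, was at 532 and 481 FPKM against 2115 and 1887 FPKM (1.98, SE 0.12), and pseudogene copies make its exact value uncertain. Pdk1, which shuts pyruvate out of the mitochondrion, rose from 18.2 and 20.4 FPKM to 94.7 and 82.3 FPKM (2.14, SE 0.12), while its relative Pdk2 fell from 15.6 and 14.1 FPKM to 4.5 and 3.61 FPKM. In all, 19 of 24 glycolysis genes rose and 2 fell (median 1.88), and the same counts were found in hypoxic growth against normoxic growth (median 1.69). In normoxic differentiation against normoxic growth 7 rose and 8 fell (median -0.13), with Hk2 at 53.2 and 54.3 FPKM among those that rose.

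By list median, mitochondrial genes were closer to the standard myoblast level than in hypoxic growth, with exceptions. Of 75 nuclear genes for respiratory chain subunits, 33 fell and 4 rose in hypoxic differentiation (median -0.19), whereas in hypoxic growth 70 fell and 1 rose (median -0.77). From hypoxic growth to hypoxic differentiation, 63 of the 75 rose and 2 fell (median 0.63). With only the 4 compared libraries 13 were lower and 2 higher, with array weights 17 and 2, and with median-of-ratios scaling 22 and 9. Ndufa4, a subunit tied to cytochrome oxidase, was at 534 and 534 FPKM, against 118 and 117 FPKM in hypoxic growth and 237 and 311 FPKM in hypoxic differentiation. Uqcrq, a complex III subunit, was an exception and rose from 183 and 165 FPKM to 394 and 405 FPKM. In the citric acid cycle list 13 of 26 genes fell and 0 rose (median -0.31), 7 and 0 with the 4 libraries alone. In hypoxic growth 18 of the 26 fell and 0 rose (median -0.79). Both hypoxic differentiation libraries lay below all 6 others at 6 of the 26, against 10.4% of all genes. The mitochondrial enzyme gene Idh2 had the largest fall in the list, from 161 and 148 FPKM to 29.1 and 24.8 FPKM (-2.48, SE 0.10, adjusted p = 6.4e-06). Idh2 was at 36.3 and 37 FPKM in hypoxic growth, above hypoxic differentiation (difference -0.44, SE 0.10, adjusted p = 0.0115).

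Genes of cholesterol synthesis were higher in hypoxic differentiation than in any other group for most members. Of 25 genes 24 were tested, 21 rose and 0 fell against normoxic growth, and the median change was 1.81. In hypoxic growth against normoxic growth 20 of the 24 fell and 0 rose (median -1.61). From hypoxic growth to hypoxic differentiation all 24 rose, with a median of 3.21. For 20 of the 24, both hypoxic differentiation libraries lay above all 6 others, against 15.5% of all genes. Hmgcs1, an early enzyme of the route, was listed at 0 in every library and gives no information.

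The sterol genes Msmo1 and Idi1, both with large rises, are shown with the RefSeq sequence around their start (same window and build), to display CCAAT, the NF-Y core letters that often stand beside sterol elements, in capitals on either strand (ATTGG on the other strand).
Msmo1 (chr8:64733529-64733828, minus strand): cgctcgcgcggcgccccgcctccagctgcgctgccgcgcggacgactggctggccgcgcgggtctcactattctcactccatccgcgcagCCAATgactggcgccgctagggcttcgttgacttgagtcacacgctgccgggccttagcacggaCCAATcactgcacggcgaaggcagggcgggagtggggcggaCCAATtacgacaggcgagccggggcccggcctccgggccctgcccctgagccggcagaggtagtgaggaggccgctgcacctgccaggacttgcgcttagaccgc
Idi1 (chr13:8885356-8885655, plus strand): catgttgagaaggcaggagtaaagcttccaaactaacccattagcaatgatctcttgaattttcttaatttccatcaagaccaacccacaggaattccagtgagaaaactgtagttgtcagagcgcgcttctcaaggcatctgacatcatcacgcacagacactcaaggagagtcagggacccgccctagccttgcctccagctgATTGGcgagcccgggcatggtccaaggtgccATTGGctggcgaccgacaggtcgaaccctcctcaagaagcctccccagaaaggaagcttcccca

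These letters were found in 16 of the 17 cholesterol genes with a window (94.1%), in 43.4% of genes tested and in 41.1% of all genes with a window. CCAAT was searched after the values were seen. The E-box CAGCTG, which MyoD can bind, stood in the windows of 28 of 55 muscle genes (50.9%), against 18.3% of all genes.

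Msmo1, a sterol demethylation enzyme, was at 21 and 21.3 FPKM in normoxic growth, 2.06 and 1.3 FPKM in hypoxic growth, 22.1 and 22.3 FPKM in normoxic differentiation and 136 and 213 FPKM in hypoxic differentiation. Its log2 change against normoxic growth was 2.95 (SE 0.22, adjusted p = 6.6e-05). Idi1, an isomerase that makes a building block of sterols, was at 10.7 and 11.7 FPKM against 53.4 and 115 FPKM (2.71, SE 0.31), with replicate B the higher. Both hypoxic differentiation libraries exceeded every other library in these genes.

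Sqle, which carries out an oxygen-using step, went from 24.9 and 23.5 FPKM to 178 and 203 FPKM (2.92, SE 0.09, adjusted p = 3.05e-06). From hypoxic growth to hypoxic differentiation Msmo1 rose by 6.01 (SE 0.22, adjusted p = 3.19e-05) and Idi1 by 4.68 (SE 0.31, adjusted p = 0.000206). Serum, which carries cholesterol, also differs between the media, and its part in these levels was not tested.

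The median change of the list was 1.40 with replicate A and 2.22 with replicate B, and B was the higher in all 24. Leaving out A, 24 rose and 0 fell, and leaving out B, 21 rose and 2 fell. Of 12 fatty acid genes, 6 rose and 2 fell (median 0.36). Acly, which supplies acetyl-CoA, rose from 26.2 and 26.4 FPKM to 64.8 and 103 FPKM, and Fads2, a desaturase, from 22.9 and 25.2 FPKM to 48.3 and 98.3 FPKM. Elovl6, an elongase, fell from 21 and 23.5 FPKM to 3.51 and 6.51 FPKM.

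**Figure D4:**
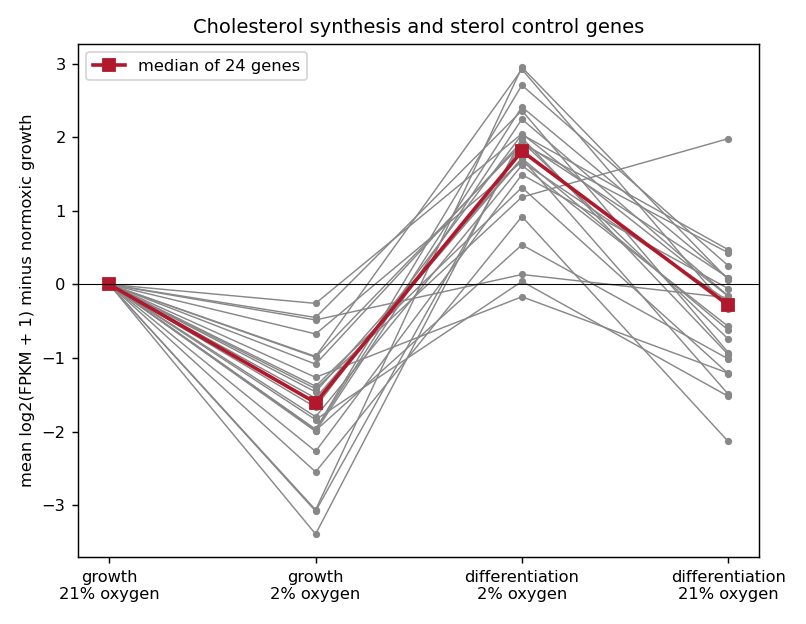
Each grey line is 1 of the 24 tested cholesterol synthesis and sterol control genes, as mean log2(FPKM + 1) of the 2 libraries of a group minus the normoxic growth mean, and the red squares give the median. The median falls to -1.61 in hypoxic growth and rises to 1.81 in hypoxic differentiation, and in normoxic differentiation it is -0.28.

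Genes of the amino acid stress response, driven by the factor ATF4, rose. All 20 tested members were higher (median 2.34), as they were in hypoxic growth (median 1.98) and in normoxic differentiation (median 3.42). Asns, which makes asparagine, was at 8.21 and 7.29 FPKM in normoxic growth, 78.5 and 64.4 FPKM in hypoxic differentiation and 237 and 243 FPKM in normoxic differentiation. Trib3, a kinase-like brake on ATF4, was at 1.75 and 1.66 FPKM against 52.8 and 38.8 FPKM (4.10, SE 0.14, adjusted p = 4.15e-06). Ddit3, the stress factor CHOP, went from 37.3 and 30.1 FPKM to 136 and 203 FPKM. Against normoxic differentiation 14 of the 20 were lower in hypoxic differentiation and 0 higher (median -1.44), so the level lay between the growth and the normoxic differentiation level.

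Chaperone genes of the endoplasmic reticulum rose in 17 of 20 and fell in 1 (median 0.79), while in hypoxic growth 5 rose and 8 fell. In normoxic differentiation against normoxic growth 9 rose and 6 fell (median 0.15). Hspa5, the main chaperone BiP, was at 161 and 170.2 FPKM in normoxic growth, 159 and 154 FPKM in hypoxic growth and 346 and 394 FPKM in hypoxic differentiation (1.16, SE 0.09, adjusted p = 8.04e-05). Sdf2l1, another chaperone, was at 14.2 and 10.7 FPKM against 38.3 and 41.2 FPKM. Both were higher than in hypoxic growth. In normoxic differentiation Hspa5 was at 406 and 415 FPKM, not called different from hypoxic differentiation (adjusted p = 0.175). Sdf2l1 was at 6.16 and 5.46 FPKM there.

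Lysosome and autophagy genes rose in 18 of 28 and fell in 5 (median 0.50), against 7 and 6 in hypoxic growth. Lamp1, a lysosomal membrane protein, was at 239 and 219 FPKM in normoxic growth, 226 and 216 FPKM in hypoxic growth and 586 and 549 FPKM in hypoxic differentiation (1.31, SE 0.08, adjusted p = 3.88e-05). Hexa, a lysosomal enzyme, went from 74.6 and 68.7 FPKM to 175 and 151 FPKM. Tfeb, the factor that drives lysosome genes, fell from 8.16 and 5.87 FPKM to 3.22 and 3.62 FPKM.

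Targets of p53 rose in 13 of 15 and fell in 1 (median 1.25). The counts against normoxic growth were 10 and 0 in hypoxic growth (median 0.97) and 6 and 1 in normoxic differentiation (median 0.7). From hypoxic growth to hypoxic differentiation 2 rose and 2 fell. Mdm2, which degrades p53 and is itself a target, was at 16 and 17.7 FPKM against 49.2 and 99.2 FPKM (1.99, SE 0.28, adjusted p = 0.0012), and Ccng1, a cyclin induced by p53, at 14.4 and 16.3 FPKM against 66.2 and 145 FPKM. In all 15 genes replicate B was above A, with medians of 1.89 and 0.76. Leaving out B, 11 rose and 1 fell. Gadd45a, a DNA damage gene, fell from 85.6 and 73.1 FPKM to 28.1 and 46.7 FPKM.

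Proliferation genes differed between the hypoxic differentiation replicates. Mki67, the proliferation antigen, was at 15.1 and 21.3 FPKM in normoxic growth and at 3.46 and 23.6 FPKM in hypoxic differentiation, so replicate A lay below and replicate B above the growth libraries. Ccnb1, the mitotic cyclin, was at 38.9 and 42.5 FPKM against 2.35 and 15.7 FPKM (-2.48, SE 0.63, adjusted p = 0.0158), lower in both replicates, and lost its call in 3 of 21 alternatives. Ccnd1, the cyclin that answers growth factors, was at 30.5 and 31.7 FPKM against 11.9 and 24.8 FPKM.

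Among 58 mitosis genes 5 fell and 0 rose (median -0.76). Replicate B was above A in all 58, with a median change of -1.85 in A and 0.30 in B. With the 4 compared libraries alone, 1 fell. For 48 DNA replication genes, 5 rose and 1 fell with both replicates (median 0.10). B was above A in all 48, at medians of 0.75 and -0.57. The direction of both lists therefore rests on which library is used, and no direction is drawn for proliferation. For comparison, 49 of the 58 mitosis genes fell in normoxic differentiation against normoxic growth, with medians of -2.05 and -1.92 in its libraries.

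Other lists depended less on the choice of replicate. The median changes in A and in B were 2.99 and 2.74 for the HIF list and 2.11 and 2.10 for the ATF4 list. They were -0.97 and -0.81 for the myoblast list and -0.79 and -1.09 for terminal muscle genes.

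**Figure D5:**
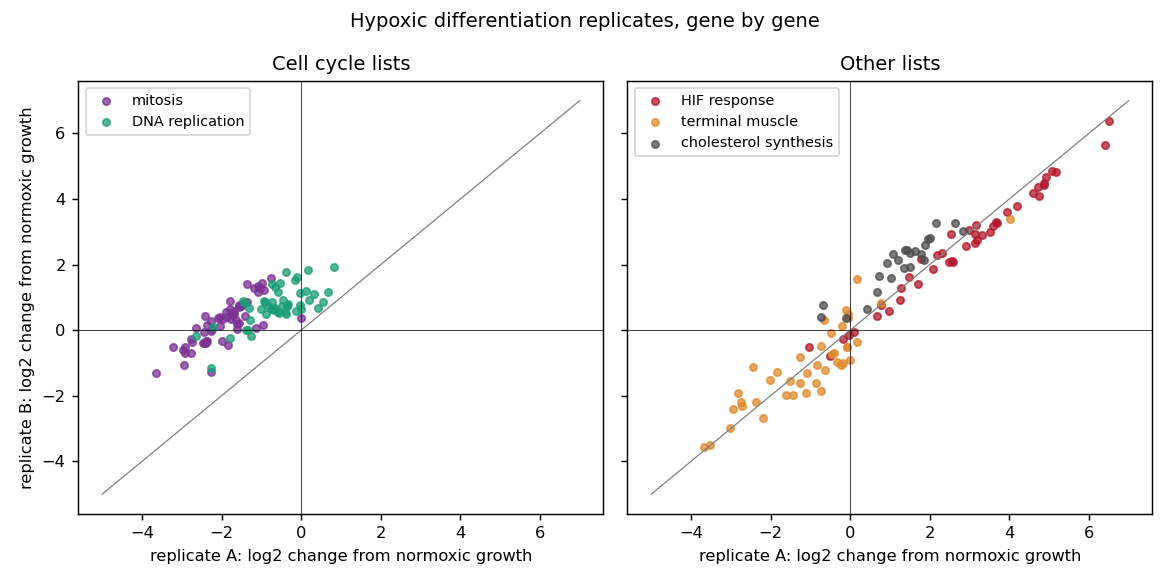
Each point is 1 gene, with its log2 change from the normoxic growth mean in hypoxic differentiation replicate A on the x axis and in replicate B on the y axis, and the line marks equality. Mitosis and DNA replication genes lie above the line, in all 58 and all 48 genes, and so do all 24 cholesterol synthesis genes. Of 43 HIF response genes 10 lie above it (list medians 2.99 in A and 2.74 in B), and of 42 terminal muscle genes 21 do.

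Histone transcripts rose in 32 of 42 tested genes and fell in 2 (median 1.82). Of the 42, 20 passed the level filter only through hypoxic differentiation, so for those a rise was fixed by the filter. Hist1h2bc, an H2B gene, was at 10.9 and 9.47 FPKM in normoxic growth, 88.7 and 87.1 FPKM in hypoxic growth and 199 and 136 FPKM in hypoxic differentiation. Histone copies are nearly identical, and the split of reads among them is uncertain. Replicate B was above A in 8 of the 42, against all 48 of the DNA replication genes. Of 13 genes for enzymes that write and erase H3K27 methylation, 3 rose and 3 fell, with 7 and 3 without hypoxic differentiation A and 3 and 4 without B. Ezh2, the methyltransferase, was at 12.3 and 12.7 FPKM against 9.17 and 23.3 FPKM, not called. Its relative Ezh1 fell from 39.8 and 35.9 FPKM to 14.5 and 11.7 FPKM (-1.47, SE 0.12, adjusted p = 9.48e-05). The demethylase gene Kdm6b rose from 20.2 and 20.7 FPKM to 32.1 and 27 FPKM and Kdm6a was at 7.02 and 9.52 FPKM against 8.13 and 8.54 FPKM.

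Matrix and growth factor genes mostly fell. Of 42 tested matrix genes 24 fell and 10 rose (median -0.68), and 18 fell and 4 rose with the 4 compared libraries alone. In normoxic differentiation against normoxic growth 25 fell and 9 rose (median -0.64). Mgp, an inhibitor of calcification, was at 672 and 583 FPKM in normoxic growth and 33.2 and 13.9 FPKM in hypoxic differentiation (-4.80, SE 0.36, adjusted p = 6.96e-05), and was also low in normoxic differentiation (5.31 and 7.18 FPKM). Bgn, the small proteoglycan biglycan, went from 790.4 and 719 FPKM to 75.9 and 119 FPKM. Col1a1, a chain of collagen I, rose from 20.5 and 17.2 FPKM to 36.4 and 38.2 FPKM (0.95, SE 0.11), and Col3a1, of collagen III, was at 573 and 571 FPKM against 949 and 540.0 FPKM, not called.

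Among TGF-beta and BMP pathway genes 14 of 24 fell and 3 rose (median -0.63). In normoxic differentiation against normoxic growth 15 fell and 4 rose (median -0.9). In hypoxic differentiation Ltbp2, a TGF-beta binding protein of the matrix, went from 55.5 and 51.5 FPKM to 1.88 and 5.18 FPKM (-3.69, SE 0.31). Fstl3, which binds activin and myostatin, rose from 9.73 and 7.81 FPKM to 65.5 and 92.3 FPKM (3.02, SE 0.17), and the receptor gene Tgfbr2 from 47.2 and 51.7 FPKM to 116 and 92.3 FPKM.

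Insulin-like growth factor and imprinted genes fell in 10 of 15 and rose in 1 (median -0.98). In normoxic differentiation against normoxic growth 9 fell and 5 rose (median -0.89). Mest, an imprinted gene that marks mesodermal growth, was at 212 and 204 FPKM in normoxic growth and 7.1 and 5.55 FPKM in hypoxic differentiation (-4.84, SE 0.12, adjusted p = 1.96e-06). Hypoxic growth was still lower, at 1.19 and 1.11 FPKM, and the rise from there was 1.76. Peg3, another imprinted gene, fell from 63.9 and 89.7 FPKM to 12.3 and 9.81 FPKM. Igf2, which drives differentiation as a secreted factor, was at 3.82 and 3.02 FPKM against 0.531 and 0.624 FPKM (-1.48, SE 0.11), and at 272 and 269 FPKM in normoxic differentiation. H19, the RNA beside Igf2, fell from 274 and 217 FPKM to 89.5 and 119 FPKM.

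Interferon response genes showed no shared direction, with 5 of 16 higher and 7 lower (median -0.22), although 15 of the 16 rose in normoxic differentiation against normoxic growth. H2-K1, a class I antigen presentation gene, rose from 85.7 and 72.2 FPKM to 236 and 236 FPKM. Among immediate early genes, 9 of 24 rose and 8 fell, with 14 and 7 without hypoxic differentiation A and 9 and 12 without B. Egr1, a growth factor response gene, fell from 50 and 43.7 FPKM to 2.84 and 7.12 FPKM (-3.10, SE 0.31, adjusted p = 0.000265), while Ier3, a stress-induced gene, rose from 52.5 and 42 FPKM to 291 and 347 FPKM. Among antioxidant genes 7 of 19 rose and 7 fell, or 4 and 4 with the 4 compared libraries alone. Hmox1, heme oxygenase 1, rose from 53.1 and 42.2 FPKM to 239 and 173 FPKM (2.08, SE 0.17), and G6pdx, of the pentose phosphate route, fell from 49 and 48.3 FPKM to 25.8 and 22.6 FPKM. Of 18 cytokine and chemokine genes 4 rose and 7 fell (median -0.12), and of 23 SRF and YAP targets 5 rose and 7 fell (median -0.27), with 11 and 7 without hypoxic differentiation A and 4 and 16 without B. Ribosome biogenesis genes gave 3 higher and 4 lower of 37 (median 0.04), with 14 and 4 without A and 3 and 15 without B.

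The genes with the largest rises outside these lists were mostly also high in hypoxic growth, apart from Gsta1 and Gm3776. 2610528A11Rik was at 13.5 and 13.2 FPKM in normoxic growth, 756 and 855 FPKM in hypoxic growth and 1116 and 982 FPKM in hypoxic differentiation. Aire, a transcription factor known from the thymus, was at 0.0427 and 0.264 FPKM, 56.7 and 53.8 FPKM and 63.8 and 68.6 FPKM in the same order, and Gpr35, a receptor, at 0.292 and 0.368 FPKM, 35.4 and 36.9 FPKM and 45.9 and 47.5 FPKM. For Aire and 2610528A11Rik no difference between the hypoxic groups was called (adjusted p = 0.136 and 0.113).

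Other genes with large rises stood above hypoxic growth. Nos2, the inducible nitric oxide synthase and a member of the cytokine list, was at 1.34 and 1.24 FPKM in normoxic growth, 37.1 and 37.5 FPKM in hypoxic growth and 117 and 139 FPKM in hypoxic differentiation, with 21.5 and 17.9 FPKM in normoxic differentiation (5.81 against normoxic growth, SE 0.12). Selenbp1, a selenium-binding enzyme, was at 2.77 and 3.04 FPKM, 32.8 and 32.3 FPKM and 170.3 and 102 FPKM in that order of groups, and Sprr1a, a small proline-rich protein of stratified epithelia and of stressed muscle, at 11.2 and 9.11 FPKM, 101 and 118 FPKM and 351 and 383 FPKM. The secreted carbonic anhydrase gene Car6 reached 54.8 and 26 FPKM from 0.107 and 0.0823 FPKM.

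Among the deepest falls, Car3, a carbonic anhydrase of slow muscle and fat, was at 321 and 299 FPKM in normoxic growth, 1.72 and 2.01 FPKM in hypoxic growth and 6.67 and 13.3 FPKM in hypoxic differentiation (-4.89, SE 0.27, adjusted p = 2.06e-05). Slc1a3, a glutamate transporter, was at 71 and 73.5 FPKM against 3.14 and 3.06 FPKM (-4.16, SE 0.11), and Cxcl5, a chemokine for neutrophils, at 480.4 and 465 FPKM against 32.1 and 35.1 FPKM (-3.78, SE 0.11). Ramp2, which pairs with the adrenomedullin receptor, went from 32.8 and 20.6 FPKM to 0.97 and 0.409 FPKM, opposite in direction to Adm. Clmp, a cell junction protein, went from 29.3 and 33 FPKM to 1.45 and 1.6 FPKM. In each of these 5 genes the normoxic growth libraries were the highest of the 8.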

How the data were processed

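C2C12 RNA libraries were analysed from 1 table that the authors deposited, with 1 column per library and 24043 gene symbols. Its values are FPKM as deposited by the authors, by their behaviour (not whole, in steps that fall with gene length), although the table is named as counts. The submitters' processing notes name STAR 2.5.1b, Cufflinks 2.2.1 and mm9, with no role stated, and use of strand in counting is not given in the sources used here. Reads shared by near-identical genes (histones, alpha-class glutathione transferases, pseudogene copies) and by genes that overlap on opposite strands may be split wrongly. Of the symbols, 22883 are current in the GRCm38 tables used for names and promoter windows. No column of another sample was used.

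Genes with a mean of at least 1 FPKM in hypoxic differentiation or normoxic growth were tested as log2(FPKM + 1) with limma 3.58.1 (R 4.3.3), 4 group means over 8 libraries, 4 residual and 2.862 prior degrees of freedom and a trend in the variance prior. Tests were two-sided, adjusted by Benjamini-Hochberg over all 11780 genes, at 0.05. The code was tested on simulated data. Lists were described by counts and medians, with no test. The members and lists were chosen with earlier results of these data known. Named genes were a set list, the 12 largest rises and 12 largest falls (adjusted p under 0.05, at least 10 FPKM in the higher group, no overlap, no small RNA symbols), and the 3 largest each way in each of 35 lists at 5 FPKM. A few others are named from the lists, chosen after their values were seen, and a few that met the rule are not reported here. The replicate letters did not pair the libraries (correlation of A minus B deviations between groups -0.213 to 0.051). P-values measure the spread between 2 libraries a group, pooled over the 4 groups. With 1 library of a group left out, that group adds nothing to this spread. Alternatives covered scaling, pseudocount, filter, variance model and each library left out. The other RNA samples enter only through the shared spread and as values set beside the comparison.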

Additional observations from a re-analysis of the deposited data

Results flagged for a closer look

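For 21 of the 24 genes with the largest changes, the change between media differed with oxygen. This was called by the interaction term of the limma fit at an adjusted p under 0.05. The 24 genes were ranked on a difference between libraries that also enter this term, so the count of 21 is no separate support. Of all 11780 genes tested, 6177 passed the same threshold, 4353 with a positive and 1824 with a negative interaction. The interaction is hypoxic differentiation minus hypoxic growth, minus the same difference at 21% oxygen, on the log2(FPKM + 1) scale. Among the risen genes it was positive for 2610528A11Rik (1.31), Gm3776 (5.57), Gsta1 (5.95), Selenbp1 (1.37) and Sprr1a (2.82). For 2610528A11Rik the medium difference was -0.93 at 21% oxygen and 0.38, not called, at 2% oxygen. The interaction was negative for Adm (-1.74), Ero1l (-1.75), Aire (-0.93), Nos2 (-1.43), Gpr35 (-0.62), Car6 (-2.89) and Higd1a (-1.09).

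The genes among the 21 that fell had a positive interaction. Where a gene was already low in hypoxic growth or normoxic differentiation, a further fall was bounded by 0 FPKM. Mest, for example, was at 1.19 and 1.11 FPKM in hypoxic growth and 13.4 and 14.5 FPKM in normoxic differentiation. The values were 4.10 for Car3, 5.57 for Mest, 4.72 for Mgp, 3.29 for Slc1a3, 0.95 for Vcam1, 1.05 for Fgfr4, 2.77 for Cxcl5, 1.75 for Clmp and 1.03 for Spp1. Over all genes tested, 70.5% of the 6177 called interactions were positive as well. Groups of 2 libraries allow no test for a library that stands apart.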

How the results depend on the processing

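Of 203 named genes called in the main comparison, 178 kept the call in every alternative apart from a required log2 change of at least 1. The other 25 lost it in at least 1 alternative, 21 of them with only the 4 compared libraries. Requiring a log2 change of at least 1 left 1986 genes in the main comparison, 918 against hypoxic growth, 3058 against normoxic differentiation, 1253 for hypoxic growth against normoxic growth, 3172 for normoxic differentiation against normoxic growth and 3041 for the interaction. It left 2 DNA replication genes, 7 chaperone genes, 20 matrix genes, 6 lysosome genes, 2 respiratory chain genes and 9 p53 targets. With only the 4 libraries compared there were 3696 genes, 22 matrix genes, 1 mitosis gene and 15 respiratory chain genes. Array weights, which were lowest in hypoxic differentiation, gave 13 mitosis and 19 respiratory chain genes. No filter and robust moderation each gave 3 mitosis genes. Leaving out 1 library gave 4661 to 6859 genes in the main comparison, 2432 to 6424 against hypoxic growth, 2922 to 6678 for hypoxic growth against normoxic growth, 4 to 41 DNA replication genes and 1 to 57 mitosis genes. The counts 2639 and 2432, and 2922 and 3037, come from leaving out hypoxic growth A and B. A replicate block, though the letters pair no libraries, gave 5497 genes. Median-of-ratios scaling moved the share of higher calls from 42.8% to 49.5%.

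Directions reversed only for genes not called in the main comparison. With 1 library left out in turn, their log2 changes ran over Cdkn1b (-0.46 to 0.07), Col3a1 (-0.08 to 0.73), Ctgf (-0.85 to 0.99), Cxcl12 (-0.34 to 0.26), Ezh2 (-0.41 to 0.84), Fos (-0.22 to 0.88), Hif1a (-0.20 to 0.25), Igfbp5 (-0.35 to 0.59), Kdm6a (-0.17 to 0.22), Ly6a (-0.67 to 0.38) and Mki67 (-2.09 to 0.38), with 1 end from a hypoxic differentiation library left out, or for Hif1a and Kdm6a from a normoxic growth library. Without hypoxic differentiation A, Hif1a was at -0.05, and without B, Kdm6a was at -0.01. Under median-of-ratios scaling Cxcl12 was at 0.03. Leaving out a library of any other group gave fewer calls in the main comparison, and leaving out a hypoxic differentiation library gave more. In the latter fits the pair that stood furthest apart no longer enters the shared spread. The cause of the moves was not tested. Depth limits genes near 1 FPKM, and absolute depth is unknown.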

Other observations

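Some genes known from epithelia were high in hypoxic differentiation. Krt19, Lce1g and Cdh17 were higher there than in all 6 other libraries, as were 15.5% of all genes tested. They were picked after their values were seen and are given as values only. Krt19, a keratin, was at 6.32 and 6.11 FPKM in normoxic growth, 91 and 97.6 FPKM in hypoxic growth, 2.87 and 2.8 FPKM in normoxic differentiation and 161 and 179 FPKM in hypoxic differentiation. Lce1g, a late cornified envelope gene of skin, was at 0.0867 and 0.29 FPKM, 4.79 and 4.96 FPKM, 0.441 and 0.141 FPKM and 30.5 and 40.6 FPKM in the same order. Cdh17, a cadherin of intestinal epithelium, was at 0.0762 and 0.103 FPKM, 3.49 and 3.1 FPKM, 0.0194 and 0.0463 FPKM and 21.4 and 27.7 FPKM. Cdsn, a protein of cornified cell junctions, was at 67.6 and 63.9 FPKM in normoxic differentiation as well, against 1.13 and 0.968 FPKM in normoxic growth and 85.8 and 42 FPKM in hypoxic differentiation. Of 87 listed Sprr, Lce and numbered Krt genes, 12 were tested, 10 rose and 1 fell, and 7 of the 12 passed the level filter only through hypoxic differentiation, so for those a rise was fixed by the filter.

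Glutathione transferases of the alpha class were highest in hypoxic differentiation and differed between its replicates. Gsta1 was at 1.44 and 0.987 FPKM in normoxic growth, 1.92 and 1.17 FPKM in hypoxic growth, 0.626 and 0.448 FPKM in normoxic differentiation and 210.2 and 54.2 FPKM in hypoxic differentiation. Gsta2 reached 51.4 and 14 FPKM, Gm3776 177 and 44.8 FPKM and Gm10639 38.6 and 10.7 FPKM, each with replicate A the higher. These genes are near-identical copies, so their separate values are uncertain. Gsta4, which is less alike, went from 119 and 116 FPKM to 723 and 281 FPKM. Of 10 tested genes of the mu, pi and theta classes, 8 fell and 1 rose.

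Of the 11780 genes tested, 1231 (10.4%) were lower in both hypoxic differentiation libraries than in all 6 others. Socs2, Nrbp2 and Rtn2 were among them and were picked after their values were seen. Socs2, a brake on growth hormone signalling, was between 39.2 and 44.9 FPKM in the 6 other libraries and at 5.63 and 6 FPKM in hypoxic differentiation (-2.58, SE 0.08). Nrbp2 was at 49.4 and 42.5 FPKM in normoxic growth and 6.78 and 6.15 FPKM in hypoxic differentiation, and Rtn2, a reticulon of muscle and nerve, at 122 and 93.5 FPKM against 15.1 and 15.4 FPKM. In the other direction, Tpsab1, a mast cell tryptase gene, was at 0.441 and 0.488 FPKM against 17.3 and 21.5 FPKM.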
